A study of Mus musculus with 22 samples.

Results

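The genes described here encode the ligands and receptors of the VEGF and angiopoietin pathways. They were chosen by name: of 10 genes sought, Kdr, Flt1, Flt4, Tek, Tie1, Vegfa, Vegfc, Angpt1, Angpt2 and Nrp1, 8 were among the 998 genes of the panel, 4 receptors and 4 ligands, while Flt4 and Nrp1 had no row. Transcripts were counted in single segmented cells by CosMx, an imaging method that reads barcoded probes in tissue sections, in E10 mouse embryos on a C57BL/6J background. The study's text describes 1 Nr4a1-/-Nr4a2-/- and 1 Nr4a1+/+Nr4a2+/+ embryo, cut at 10 µm through the region of the aorta, gonad and mesonephros. The labels give the genotype only as knockout, for 13 sections, and wildtype, for 9 sections. The study's methods name strains null for each gene and no Cre driver. With 1 embryo per genotype, every comparison of genotypes was one between the sections of 2 embryos, and its p-value measures the spread between sections only.

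VEGF-A is the principal growth factor of blood vessels and signals through VEGFR2, the product of Kdr, in endothelial cells. VEGFR1, the product of Flt1, binds VEGF-A tightly but signals weakly and can act as a decoy, and VEGF-C acts on VEGFR3 and VEGFR2 in sprouting and lymphatic vessels. Angiopoietin 1, made by mural, mesenchymal and heart cells, activates TIE2, the product of Tek, and stabilizes vessels. Angiopoietin 2, made mostly by endothelial cells, is a context-dependent antagonist of TIE2, and TIE1 is an orphan receptor that pairs with TIE2. In midgestation the ligands and receptors are thus largely made by different cells, which is why cells were divided before the genes were compared.

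The labels were checked on the targeted genes. Over all cells Nr4a1 stood at 1.74 to 2.65 per 10000 transcripts, with a median of 2.25, in the 13 sections labelled knockout and at 2.29 to 3.20, with a median of 2.72, in the 9 labelled wildtype. Nr4a2 stood at 3.08 to 5.09, with a median of 4.12, and at 3.37 to 6.13, with a median of 4.73. The ranges overlapped for both genes, and the highest section of Nr4a1 lay below the 3.34 of the lowest lymphocyte gene used as a floor further on. Scaled as in the tests below, Nr4a1 differed by -0.05 ± 0.07 on the log2 scale (SE; adjusted p = 0.716, edgeR) and Nr4a2 by 0.03 ± 0.09 (adjusted p = 0.860), so neither was detectably lower in the sections that the labels call knockout. Whether the probes fall within the deleted parts is not given in the sources used here. Among the sections that the study kept for its analysis, more came from the Nr4a1+/+Nr4a2+/+ embryo, the reverse of the labels. By its methods, equal numbers of each were placed on slides and some were lost or excluded. The kept and the deposited sections may thus be unlike counts. Each direction between embryos is therefore one between sections as labelled, named knockout-labelled and wildtype-labelled. Each slide held 1 genotype, so slide and embryo cannot be told apart.

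Cells were gated by transcripts of genes that are not members. The Cdh5 gate took cells with 3 or more transcripts of Cdh5, which encodes VE-cadherin of endothelial junctions. The Tagln + Acta2 gate took cells with 4 or more transcripts of these contractile genes together, and the Twist1 gate cells with 4 or more of Twist1, a transcription factor of mesenchyme. Of 37570 cells, 1344 fell in the Cdh5 gate, 1032 in the Tagln + Acta2 gate, 3928 in the Twist1 gate and 30642 in none, and 624 that met more than 1 gate were left out of the gates. A gate by counts selects deeply read cells: the median count per cell was 413 to 462 in the gates and 139 in other cells of the knockout-labelled embryo, and at least 423.5 in the gates and 165 in other cells of the wildtype-labelled one. Rates are therefore given per 10000 transcripts counted in the same cells. Sections held 814 to 3430 cells and 169027 to 887896 counts, and 1 section of the knockout-labelled embryo with 6 Cdh5-gated cells gave no value for that gate. Names of 3409 cells recurred between sections, but 0 cells had the counts of another. A rate summed over a gate cannot tell fewer cells that express a gene from less RNA in each.

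Marker genes that took no part in the gating were checked next. The Cdh5 gate bore out its label, with 10 of 10 endothelial markers above the other cells and 9 of them by over 1.5 times, Pecam1 at 19.02 against 5.86 per 10000 and Cd34 at 23.9 against 4.92. Of the markers of other cell types 1 passed as higher there, the smooth muscle gene Cald1, at 72.5 against 54.3. The Tagln + Acta2 gate was mixed. Its 6 smooth muscle markers summed to 496 per 10000 against 165.7 in other cells, but 2 of 5 heart muscle markers also passed the test as higher, Tnnc1 at 19.12 against 9.32 and Ttn at 12.9 against 4.89, and so did 2 of 7 mesenchyme markers, Foxc2 and the collagen gene Col1a1, the latter at 245.2 against 56.6. Of 5 epithelium markers the keratins Krt8, Krt18 and Krt19 passed as higher, Krt8 at 28.8 against 15.1, and Epcam as lower, and of the 10 endothelial markers Vwf passed as higher, at 8.05 against 6.53. In the Twist1 gate the 7 mesenchyme markers summed to 116.4 per 10000, close to the 118.1 of other cells. Of the 7, Twist2 and Pdgfra passed the test as higher, none by 1.5 times, so that gate is named only by its gene.

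The stretch before the start of each receptor gene is shown because the 4 receptors rose together in Cdh5-gated cells, as described below, and because endothelial genes are known as targets of ETS factors, which bind the core GGAA. Each is the 250 bases upstream of the start listed for the gene, from RefSeq on build GRCm38.p6, written 5′ to 3′ along the gene's strand, with GGAA or its reverse complement TTCC in capitals. Kdr lies at chr5:75978456-75978705 on the minus strand, Flt1 at chr5:147726012-147726261 on the minus strand, Tek at chr4:94739039-94739288 on the plus strand and Tie1 at chr4:118489850-118490099 on the minus strand.
Kdr: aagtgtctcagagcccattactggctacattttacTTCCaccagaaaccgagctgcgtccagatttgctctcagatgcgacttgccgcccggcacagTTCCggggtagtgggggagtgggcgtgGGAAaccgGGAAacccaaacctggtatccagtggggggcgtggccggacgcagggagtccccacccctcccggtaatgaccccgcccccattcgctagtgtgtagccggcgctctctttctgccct
Flt1: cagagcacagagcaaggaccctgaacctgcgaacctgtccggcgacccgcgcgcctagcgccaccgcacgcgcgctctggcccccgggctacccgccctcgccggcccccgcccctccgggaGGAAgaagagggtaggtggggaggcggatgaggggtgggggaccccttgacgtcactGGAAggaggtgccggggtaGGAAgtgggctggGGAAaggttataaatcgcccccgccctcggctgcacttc
Tek: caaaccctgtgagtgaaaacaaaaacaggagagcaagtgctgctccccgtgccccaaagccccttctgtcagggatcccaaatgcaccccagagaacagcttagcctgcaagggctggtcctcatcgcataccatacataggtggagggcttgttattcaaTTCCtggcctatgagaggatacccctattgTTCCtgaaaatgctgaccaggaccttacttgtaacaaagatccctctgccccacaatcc
Tie1: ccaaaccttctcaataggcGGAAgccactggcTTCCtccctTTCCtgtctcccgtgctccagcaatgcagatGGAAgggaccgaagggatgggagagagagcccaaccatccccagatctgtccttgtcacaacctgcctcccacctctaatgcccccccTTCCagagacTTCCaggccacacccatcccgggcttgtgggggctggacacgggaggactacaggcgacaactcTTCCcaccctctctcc
The core occurred 4 times before Kdr, 4 times before Flt1, 2 times before Tek and 7 times before Tie1, counting both strands. Of 32851 mouse promoters of this length, 93.4% held at least 1 GGAA, with a median of 3 matches, and 33.4% held 4 or more. Neither AGATAA, bound by GATA factors, nor AGGTCA, bound by nuclear receptors, occurred in the 4 windows on either strand, while 10% and 14% of promoters held them. The annotated spans of Kdr, Flt1 and Tek reach into or past these windows through other transcripts, so that each window belongs to 1 start only, and exons inside it were not analysed here. On the same build the ligand genes lie at chr17:46016993-46032377 (Vegfa), chr8:54077532-54186454 (Vegfc), chr15:42424667-42676977 (Angpt1) and chr8:18690263-18741562 (Angpt2).

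All 4 receptors rose in Cdh5-gated cells against cells in no gate, by 2.03 to 3.21-fold. Kdr, which marks the endothelial lineage, stood at 12.98 to 39.6 per 10000 in the 21 sections with such cells, with a median of 26.0. In other cells it stood at 7.33 to 10.4 with a median of 8.86. The ranges over sections did not overlap. The log2 fold change was 1.68 ± 0.08 (SE; adjusted p = 1.15e-44, edgeR), or 3.21-fold, the sixth highest of 993 genes tested. Across the panel 19% of genes passed the test in this comparison, against 6 of the 8 members. As higher 11% passed, against 5 members, and as lower 8.06%, against 1. Scaled by library size alone, 36.5% of the genes called were higher, against 57.7% with TMM factors. The genes above Kdr were Cdh5 itself, Cd34, Col4a1, Col4a2 and Pecam1.

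Tie1 and Flt1 followed Kdr closely. Tie1 ranged from 14.3 to 36.9 per 10000 over the sections in Cdh5-gated cells and rose by 1.60 ± 0.08 on the log2 scale (adjusted p = 3.42e-36), a 3.04-fold difference. Flt1 ranged from 10.5 to 31.3 against 4.6 to 11.3 in other cells, overlapping at the low end, and rose by 1.34 ± 0.08 (adjusted p = 9.12e-29), 2.54-fold. Tek ranged from 11.4 to 21.9 and rose least, by 1.02 ± 0.08 (adjusted p = 2.23e-24), 2.03-fold. Each receptor was higher in Cdh5-gated cells than in the other cells of the same section in 21 of 21 sections. The median ratio within a section was 2.95 for Kdr, 2.87 for Tie1, 2.36 for Flt1 and 1.87 for Tek. Fold differences are of each gene against itself, and since probes differ, the rates of members were not ranked against each other.

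Outside the Cdh5 gate the receptors differed less between classes. In the Tagln + Acta2 gate, where 15.6% of the panel passed the test and 1 of 8 members did, 0 of 4 receptors did, with log2 fold changes over other cells from -0.17 for Kdr to 0.18 for Tek (adjusted p from 0.191 to 0.666, edgeR). In the Twist1 gate, where 11% of the panel and 3 of 8 members passed (6.45% and 1 member as higher, 4.53% and 2 members as lower), Kdr fell by 0.23 ± 0.08 (adjusted p = 0.0357) and Tie1 fell by 0.25 ± 0.09 (adjusted p = 0.0387). Flt1 was at -0.21 there (adjusted p = 0.0994) and Tek at -0.02. Kdr was below the other cells of its section in 19 of 22 sections and Tie1 in 17 of 22. The Kdr call passed in 4 of 9 other settings, at -0.38 to -0.15, and the Tie1 call in 5 of 9, at -0.32 to -0.17, and neither passed within the sections of 1 embryo alone. These are differences of about 0.85-fold in the counted rates. Above the median rate of 15 lymphocyte genes, described further on, Kdr stood at 2.35 ± 1.72 and 1.95 ± 1.65 per 10000 in the Twist1 gate of the 2 embryos against 3.77 ± 0.79 and 3.82 ± 0.44 in other cells, and Tie1 at 1.53 ± 0.99 and 2.77 ± 2.30 against 3.08 ± 1.33 and 3.38 ± 1.32.

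**Figure D1:**
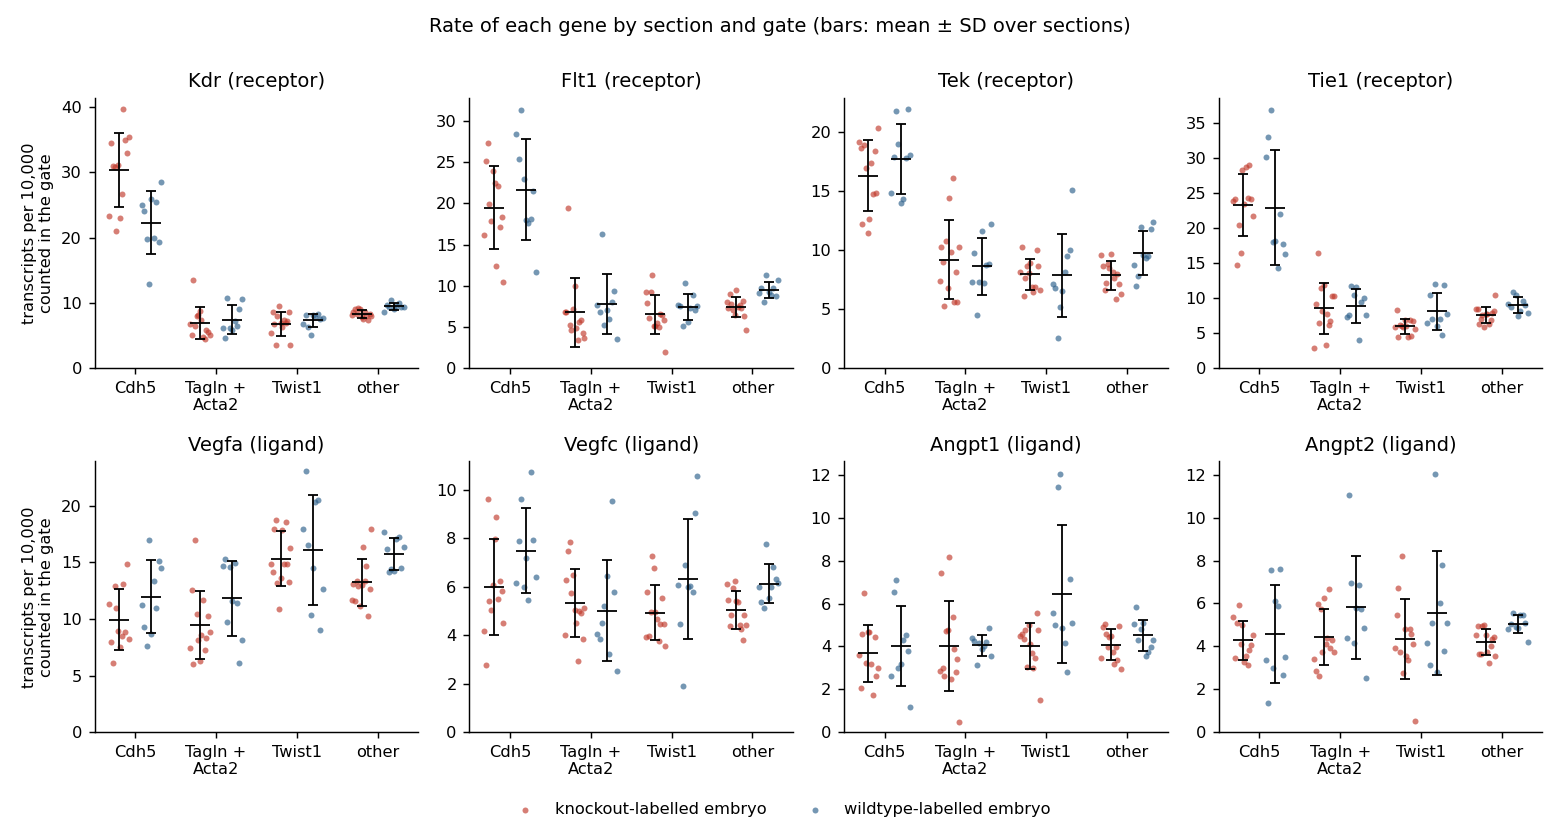
Rate of each gene in transcripts per 10000 counted (vertical axis, linear from 0) in the 4 cell classes (horizontal axis), 1 point a section, coloured by embryo, with bars for the mean ± SD. Kdr, Flt1, Tek and Tie1 have their highest means in Cdh5-gated cells, with some sections of other classes reaching their lowest sections there and Kdr at 30.3 ± 5.72 and 22.3 ± 4.75 in the 2 embryos, while Vegfa is highest in Twist1-gated cells and Angpt1 and Angpt2 overlap across classes.

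Vegfa had the reverse pattern. In Cdh5-gated cells it stood at 9.95 ± 2.66 per 10000 (SD, n = 12 sections) in the knockout-labelled embryo and 11.98 ± 3.21 (n = 9) in the wildtype-labelled embryo, against 13.2 ± 2.10 and 15.7 ± 1.43 in other cells. It fell there by 0.33 ± 0.08 on the log2 scale (adjusted p = 0.000807, edgeR), 1.26-fold lower, and was below the other cells in 18 of 21 sections. It also fell in the Tagln + Acta2 gate, by 0.35 ± 0.09 (adjusted p = 0.000901), and was lower in 20 of 22 sections. That call passed in 7 of 9 other settings, at -0.49 to -0.23, and not in the wildtype-labelled sections alone (adjusted p = 0.189) or with gates 1 count lower (adjusted p = 0.104). It was the single member called there, while 5.64% of the panel was called lower. Only in the Twist1 gate was it called higher, at 15.3 ± 2.42 and 16.1 ± 4.85, with a log2 fold change of 0.22 ± 0.07 (adjusted p = 0.0201) and a higher rate in 17 of 22 sections. That call passed in 5 of 9 other settings, with the value at 0.16 to 0.26, and not in the wildtype-labelled sections alone (adjusted p = 0.643), whose second set averaged 15.4 in the Twist1 gate and 15.9 in other cells. The order of means from highest to lowest was Twist1 gate, other cells, then the Cdh5 and Tagln + Acta2 gates. The Twist1 gate and other cells lay within each other's SD in both embryos, as did the Cdh5 and Tagln + Acta2 gates. The median ratio of the Twist1 gate to other cells within a section was 1.09.

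Vegfc rose in Cdh5-gated cells by 0.36 ± 0.09 on the log2 scale (adjusted p = 0.00216), 1.28-fold, and was higher than in other cells in 14 of 21 sections. It stood at 6.0 ± 1.98 and 7.48 ± 1.76 per 10000 in the 2 embryos against 5.03 ± 0.78 and 6.12 ± 0.80 in other cells, so that the ranges overlapped widely. Gated cells that held a transcript of Dll4 or Hey1, which mark arterial endothelium, gave 0.55 (adjusted p = 0.00017) and gated cells without either gave 0.15 (adjusted p = 0.528). In the knockout-labelled embryo Vegfc averaged 7.81 ± 3.56 per 10000 in the former cells and 4.93 ± 1.88 in the latter (SD, n = 12 sections). In the wildtype-labelled embryo the averages lay close together, at 7.69 ± 3.44 and 7.26 ± 2.57 (n = 9), and the difference between these 2 kinds of cells was tested in neither embryo. Over 11 other settings the value ran from 0.15 to 0.55 and passed in 8. In the other gates Vegfc did not pass the test, at 0.04 and 0.07. Angpt1 and Angpt2 passed in none of the 3 gates. Their log2 fold changes in the Cdh5 gate were -0.14 ± 0.12 and 0.00 ± 0.12, and the highest was 0.28 ± 0.12 for Angpt2 in the Tagln + Acta2 gate (adjusted p = 0.101).

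**Figure D2:**
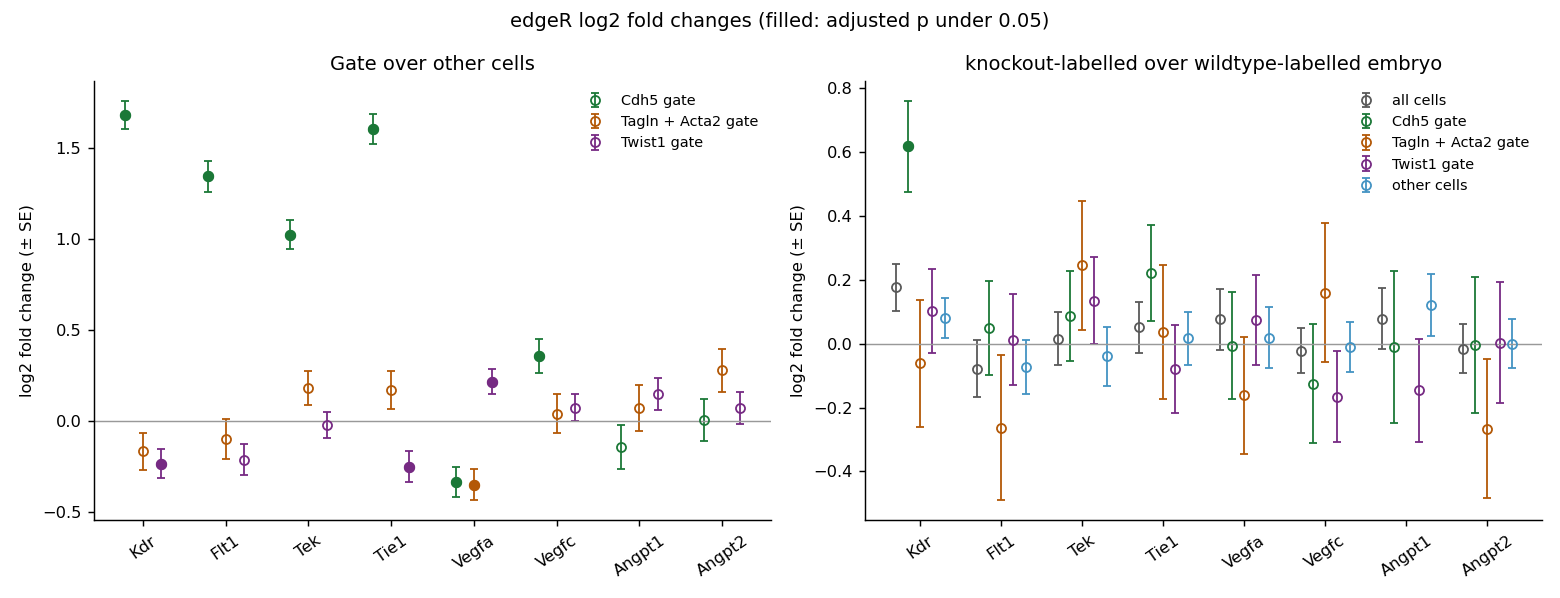
Log2 fold changes with their SE from edgeR for the 8 genes (horizontal axis), at left for each gate over cells in no gate and at right for the knockout-labelled over the wildtype-labelled embryo; filled points have an adjusted p under 0.05. The receptors in the Cdh5 gate stand at 1.02 to 1.68, and at right the single filled point is Kdr in Cdh5-gated cells at 0.62.

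The counts of the angiopoietin ligands were set against a floor, as a bound on background and not a ranking of levels. For this, 15 genes of lymphocytes, cells not yet made at this stage, were counted the same way and ranged from 3.34 to 7.54 per 10000 over all cells. Angpt1, at 4.21, was above 5 of these 15 genes, Angpt2, at 4.52, above 6, and Vegfc, at 5.54, above 11. The counts of Angpt1 and Angpt2 thus lay among those of genes with no expected transcript, whereas Vegfa and the 4 receptors were above 15 of 15. In Cdh5-gated cells Vegfc, at 6.64, was above 14 of 15, Angpt2 above 5 and Angpt1 above 2. A difference between gates in the angiopoietin ligands was not detectable at this depth, and it is not shown that their levels were equal. Some receptors outside the Cdh5 gate came near this floor. In the Tagln + Acta2 gate Kdr at 7.10 and Flt1 at 7.04 were each above 13 of 15, and in the Twist1 gate Tie1 at 6.15 was above 13 and Flt1 at 6.48 above 14, while the remaining receptors of these gates were above 15 of 15.

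The ligand and receptor counts were then set against each other within each section. In Cdh5-gated cells the 4 ligands together reached 0.271 ± 0.050 (SD, n = 12) of the 4 receptors in the knockout-labelled embryo and 0.340 ± 0.070 (n = 9) in the wildtype-labelled embryo. The ratio was 0.786 ± 0.219 and 0.849 ± 0.262 in the Tagln + Acta2 gate, 1.07 ± 0.17 and 1.15 ± 0.25 in the Twist1 gate, and 0.854 ± 0.084 and 0.835 ± 0.074 in other cells. The highest section of the Cdh5 gate was at 0.438 and the lowest of the Twist1 gate at 0.792, so these gates did not overlap, while the Tagln + Acta2 gate reached down to 0.385 and overlapped the Cdh5 gate. The shift came from the receptors, which summed to 89.4 ± 8.88 and 84.6 ± 14.7 per 10000 in the Cdh5 gate against 31.2 ± 1.93 and 37.9 ± 2.998 in other cells, more than from the ligands, at 23.9 ± 3.51 and 28.04 ± 3.48 against 26.5 ± 2.05 and 31.4 ± 1.59. Above the lymphocyte floor the ratio of the mean sums was 0.0866 and 0.108 in the Cdh5 gate, 0.429 and 0.431 in the Tagln + Acta2 gate, 1.13 and 1.38 in the Twist1 gate and 0.643 and 0.575 in other cells, so that its size depends on the background taken off while the order with the Cdh5 gate lowest did not change. The sums are over different probes, so the ratio is read between gates and not as a balance of molecules.

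**Figure D3:**
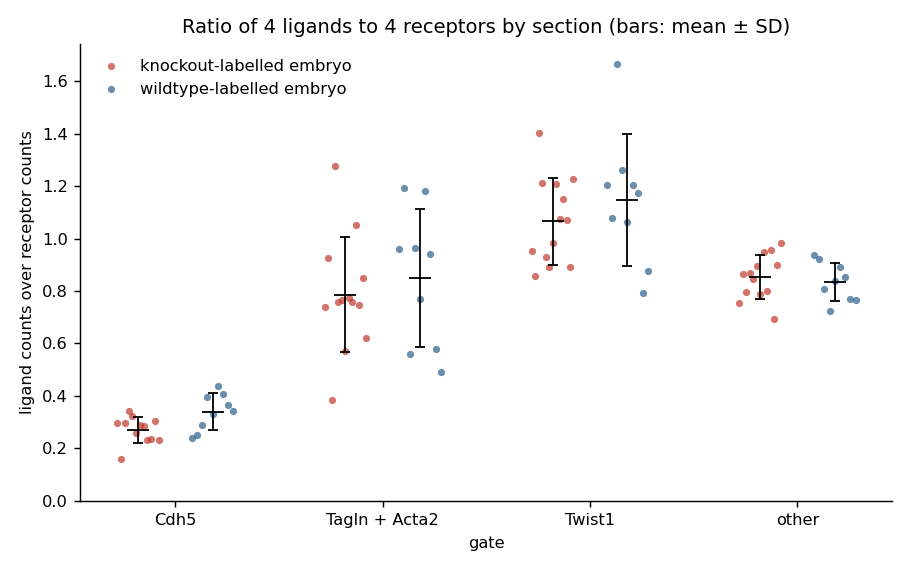
Summed counts of Vegfa, Vegfc, Angpt1 and Angpt2 over those of Kdr, Flt1, Tek and Tie1 (vertical axis, a ratio from 0) in each cell class (horizontal axis), 1 point a section, coloured by embryo, bars mean ± SD. The Cdh5 gate lies between 0.158 and 0.438, below every section of the Twist1 gate.

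Receptor rates were higher at higher Cdh5 counts of the cell, though not at every step. With cells of both embryos pooled, Kdr went from 7.67 per 10000 in 26456 cells with 0 Cdh5 transcripts to 11.4 at 1, 15.8 at 2, 17.7 at 3, 28.6 at 4, 27.5 at 5, 38.9 at 6 and 40.7 at 7, and stood at 36.1 in 168 cells with 8 or more. Tie1 went from 7.34 to 32.7 over the same span, Flt1 from 7.68 to 28.4 and Tek from 8.28 to 18.05. Tek was highest, at 20.7, in cells with 5 transcripts. Vegfa went the other way, from 14.7 at 0 to 11.2 at 8 or more, with its lowest rates between. The median count per cell rose from 129 to 596 along this span, and its part in the gradient was not tested. Along the Tagln + Acta2 count, Kdr stayed between 6.48 and 9.11 and Vegfa went from 14.8 at 0 to 8.57 at 6 or more. Along the Twist1 count Tie1 went from 8.38 to 5.80.

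**Figure D4:**
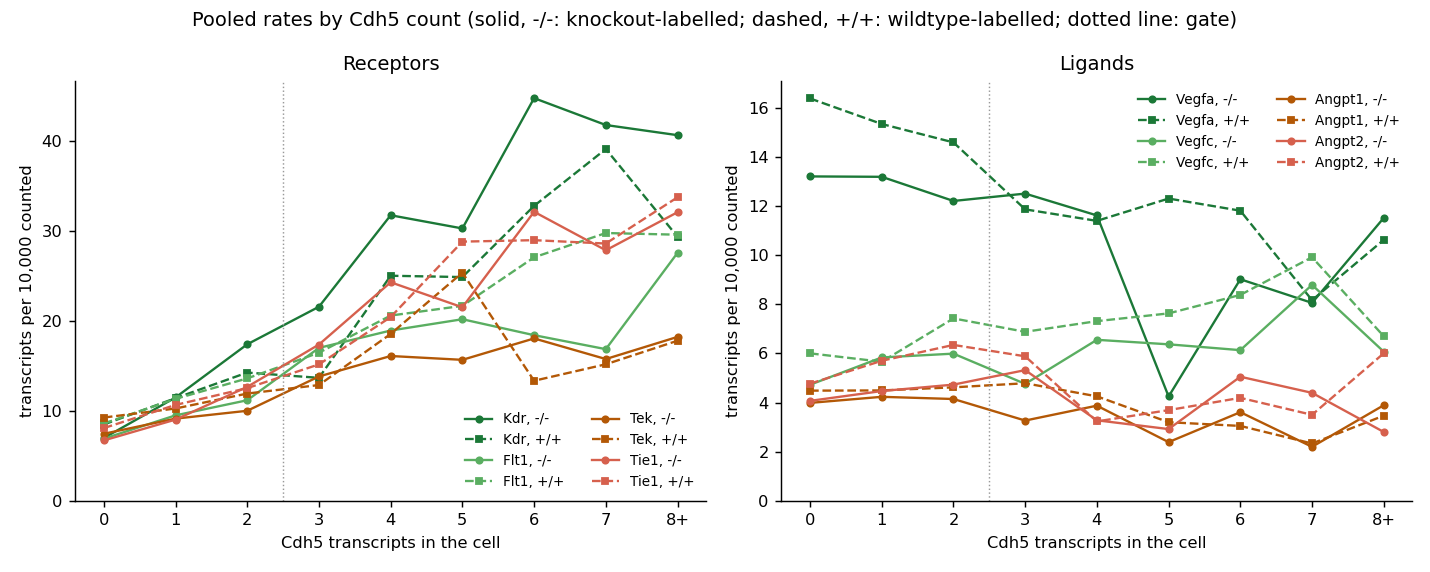
Pooled transcripts per 10000 counted (vertical axis, from 0) against the number of Cdh5 transcripts in the cell (horizontal axis), for receptors and ligands, 1 line per gene and embryo (solid, knockout-labelled; dashed, wildtype-labelled); the dotted line marks the gate. Kdr goes from 7.67 to 36.1 over both embryos, with a peak of 40.7 at 7, while Vegfa goes from 14.7 to 11.2, and the points are pooled cells with no error.

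The share of single cells with a receptor transcript depended on depth. At full depth at least 1 of the 4 receptors was seen in 88.9 ± 3.01% and 85.7 ± 4.72% of Cdh5-gated cells of the 2 embryos, and 2 or more in 62.03 ± 4.93% and 62.2 ± 5.37%. To set classes of different depth side by side, each cell was thinned at random to 100 transcripts, which left out 33 Cdh5-gated cells and 11863 of the other cells as too shallow. A Kdr transcript was then seen in 24.9 ± 6.01% of Cdh5-gated cells of the knockout-labelled embryo and 19.04 ± 3.23% of the other embryo, against 7.37 ± 0.76% and 8.56 ± 0.78% of other cells. At full depth the shares in the Cdh5 gate were 58.0 ± 6.16% and 50.6 ± 8.98%. At least 1 of the 4 receptors was seen in 56.9 ± 7.05% and 54.1 ± 6.58% of the thinned Cdh5-gated cells, against 23.5 ± 2.36% and 28.5 ± 1.83% of other cells, and 2 or more in 16.5 ± 3.68% and 16.3 ± 5.06%. A Vegfa transcript was seen in 7.90 ± 4.23% and 11.1 ± 4.27% of the gated cells. Vegfa and Kdr were seen together in 1.51 ± 1.44% and 2.54 ± 1.503% of the thinned gated cells, or 9 and 17 cells.

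Whether the receptors marked the same or separate endothelial cells was described on Cdh5-gated cells thinned to 200 transcripts. Among 246 cells with Kdr in the knockout-labelled embryo, 30.9% also had Flt1, against 28.4% of the 631 gated cells, and 35.8% had Tie1 against 34.7%. In the other embryo 34.2% of 184 cells with Kdr had Flt1 against 31.8% of 553, and 36.4% had Tie1 against 32.9%. For Tek among cells with Flt1 the shares were 21.2% against 24.1% and 26.1% against 24.4%. For Tie1 among cells with Flt1 they were 38.0% against 34.7% and 36.9% against 32.9%. Tek was less frequent among cells with Kdr or with Flt1 in the knockout-labelled embryo. In all other pairs the second receptor was more frequent among cells with the first. The shares thus differed by a few percentage points at this depth, mostly upward, which was not tested. The gated cells compared with include those with the first receptor.

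Over the 87 sums of a section and a gate, the receptors resembled endothelial genes most. The closest gene to Kdr was Cdh5 (Pearson r = 0.92), then Cd34 (0.87) and Pecam1 (0.85), and Cdh5 was also the closest to Flt1 (0.85), Tek (0.75) and Tie1 (0.86). The receptors correlated with each other at 0.62 to 0.82 and with Vegfa at -0.29 to -0.37. Since Cdh5 set 1 of the gates, the contrast between gates enters this likeness. The r between Kdr and Cdh5 was 0.06 within the Cdh5 gate, 0.19 within the Tagln + Acta2 gate, 0.61 within the Twist1 gate and 0.43 within other cells, and that between Flt1 and Cdh5 was 0.36, 0.63, 0.54 and 0.76. Within the Cdh5 gate the r between Kdr and Flt1 was -0.22 and that between Flt1 and Pecam1 0.72. The genes closest to Vegfa were Twist1, which set another gate (0.51), Epha3 (0.51) and Fabp5 (0.50). Angpt1 and Angpt2 were closest to genes of blood cells and immunity, Fgr (0.53) and Irf3 (0.49), of similarly low counts. These sums share sections and depth, and the values are descriptions.

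Other genes of the pathway were followed in lists. Of 10 signals that act with it in vessels, 10 passed the test in the Cdh5 gate, 9 of them higher, with a list median of 0.77 on the log2 scale against -0.02 over the panel. Ramp2 and Calcrl, which form the adrenomedullin receptor, rose by 1.68 and 0.92, the Notch ligand Dll4 by 0.97 and the TGF-beta co-receptor Eng by 0.88. Pdgfrb, the PDGF receptor of mural cells, fell by 0.30. These counts stand beside 19% of the panel called, 11% as higher. Of 10 kinases and other transducers below the receptors 2 passed the test, both higher, the calcium-responsive factor Nfatc1 by 0.49 and the SRC family kinase Fyn by 0.43. Of 7 hypoxia-linked genes, the glucose transporter Slc2a1 rose by 0.31 and the collagen-modifying Plod2 fell by 0.30. Among 4 further family members in the panel, Vegfb fell by 0.44 (adjusted p = 3.91e-05), while Pgf, Vegfd and Angptl1 did not pass, at 0.04, -0.26 and -0.08.

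In the Tagln + Acta2 gate, where 15.6% of the panel passed, 2 of the 10 vessel signals, 2 of the 7 hypoxia-linked genes, 1 of the 4 further family members and 0 of the 10 transducers passed the test. Pdgfrb rose by 0.45, Efnb2, an arterial ephrin, by 0.39, Pgf, a ligand of VEGFR1, by 0.37 (adjusted p = 0.0297) and Plod2 by 0.37, and the glycolytic enzyme Ldha fell by 0.31. In the Twist1 gate, where 11% of the panel passed, 1 gene of each list did. Ldha rose by 0.31, Pdgfrb by 0.24, Vegfb by 0.22 (adjusted p = 0.0266) and Rac1, a GTPase of cell movement, by 0.21. Vegfa and Vegfb thus both rose in Twist1-gated cells and both fell in Cdh5-gated cells.

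The sections of the 2 embryos were compared next. Kdr in Cdh5-gated cells was the single member that passed the test between the embryos in any class. It stood at 21.1 to 39.6 per 10000, with a median of 31.0, in 12 knockout-labelled sections, and at 12.98 to 28.5, with a median of 24.0, in 9 wildtype-labelled sections. The ranges overlapped between 21.1 and 28.5. The means of these rates were 30.3 ± 5.72 and 22.3 ± 4.75 (SD). With TMM factors the log2 fold change was 0.62 ± 0.14 (adjusted p = 0.00146, edgeR), 1.53-fold higher in the knockout-labelled sections. That is above the ratio of the means, which are scaled by counts alone, and was the 28th highest of 917 genes tested. In this comparison 6.87% of genes passed the test, 5.89% as higher, against 1 of 8 members, higher. Scaled by library size alone, 29 of 91 genes called were higher, against 54 of 63. Tie1 was at 0.22 ± 0.15 (adjusted p = 0.522), Tek at 0.09 ± 0.14, Flt1 at 0.05 ± 0.15, and the ligands between -0.12 and -0.00. Their 95% intervals reached from -0.24 to 0.34 for Flt1 and from -0.07 to 0.51 for Tie1, and that of Kdr from 0.34 to 0.90. Whether Kdr differed more than Tie1 was not tested.

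The Kdr difference held its direction in every setting tried but not always the threshold. Leaving out each section in turn gave 0.55 to 0.68 (adjusted p from 0.000572 to 0.00558), called in 21 of 21. With Cdh5 gated 2 counts higher it was 0.39 (adjusted p = 0.144), and in gated cells with Dll4 or Hey1 it was 0.40 (adjusted p = 0.166). Sections are numbered in 2 sets within each embryo, possibly slides. In the first set Kdr differed by 0.52 (adjusted p = 0.218) and in the second by 0.77 (adjusted p = 0.0016). Tie1 and Flt1 differed with the set. Tie1 was at -0.33 (adjusted p = 0.594) in the first and 0.78 (adjusted p = 0.000983) in the second. In the wildtype-labelled embryo it averaged 29.5 ± 8.16 (n = 4) and 17.7 ± 2.85 (n = 5) per 10000. In the knockout-labelled embryo it went the other way, at 21.6 ± 4.73 (n = 7) and 25.6 ± 3.15 (n = 5). Flt1 averaged 27.0 ± 3.63 and 17.4 ± 3.58 in the 2 sets of the wildtype-labelled embryo, and 21.9 ± 4.05 and 16.1 ± 4.68 in those of the other. A limma-voom fit of this gate took the set within each embryo as a random block. It gave a consensus correlation within sets of 0.00133 over the genes tested, which is not a value for any single gene. The part of the set in the values of single members was not tested beyond this.

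Other endothelial genes stood beside Kdr. In the same gate Cd34, a sialomucin of endothelial and blood progenitor cells, was 0.85 higher in the knockout-labelled sections (adjusted p = 2.52e-06), Ets1, an endothelial transcription factor, was 0.56 higher (adjusted p = 0.0132) and Ramp2 was 0.56 higher (adjusted p = 0.00453). Cdh5 itself was at 0.24 (adjusted p = 0.286), Pecam1 at 0.07 (adjusted p = 0.862) and Vwf at -0.50 (adjusted p = 0.102). Of 10 endothelial markers 2 were higher and 0 lower, beside 2 of 6 smooth muscle markers and 1 of 7 mesenchyme markers, and the part of other cells in the gate was not tested. The test of whether the gap between the Cdh5 gate and other cells differed between embryos called 0 of 993 genes (55 at an unadjusted p under 0.05, and 0 by DESeq2), with Kdr at 0.55 ± 0.14 (adjusted p = 0.114). Kdr passed in 2 of 7 other settings, scaled by library size alone (0.60, adjusted p = 0.0281) and with gates 1 count lower (0.59, adjusted p = 0.00926), and reached an adjusted p of 0.959 with gates 2 counts higher. It is thus not shown across settings that Kdr differed between the embryos more in Cdh5-gated cells than elsewhere.

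In the remaining classes 0 members passed the test between the embryos. Over all cells 12.5% of the panel passed and 0 of 8 members, with Kdr at 0.18 ± 0.07 (adjusted p = 0.118). In other cells 12.2% passed and 0 of 8 members, in the Twist1 gate 3.92% and 0 of 8, and in the Tagln + Acta2 gate 2.96% and 0 of 7, Angpt1 having too few counts there to be tested. At an unadjusted p under 0.05 the number of members was 1 over all cells and 0 in each of those 3 classes. These values depend on the scaling. Scaled by library size alone, the median gene was 0.30 lower over all cells in the knockout-labelled sections, and 58 genes were called higher of 777, against 98 higher of 125 with TMM factors. By that scaling 6 members were called over all cells and 7 in other cells, each lower in the knockout-labelled sections. Members are therefore given relative to the bulk of the panel. Twist1 was 0.91 ± 0.19 higher over all cells (adjusted p = 0.00108) and the Twist1 gate held 12.96% of cells of the knockout-labelled embryo against 7.21% of the other, and the part of this mix of cells in the values over all cells was not tested.

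Of the pathway lists, Ldha differed between the embryos in most classes, by 0.88 ± 0.19 over all cells (adjusted p = 0.00140), 0.83 ± 0.15 in the Cdh5 gate (adjusted p = 1.32e-05), 0.74 ± 0.19 in the Twist1 gate and 0.90 ± 0.18 in other cells, always higher in the knockout-labelled sections. Slc2a1 was 0.40 higher in other cells (adjusted p = 0.0264). Of the 7 hypoxia-linked genes 1 passed over all cells, where 12.5% of the panel did, and 2 in other cells, where 12.2% did. Over all cells 1 of the 4 further family members passed, Vegfb, which was 0.36 higher (adjusted p = 0.00980), and 2 of the 10 transducers did, the focal adhesion kinase Ptk2 at 0.34 and the kinase Mapk14 at 0.26, beside the same 12.5% of the panel.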

How the data were processed

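The authors deposited, for each of 22 sections, whole-number counts of transcripts per gene and segmented cell, without normalization; cells were segmented with AtoMx and the submitters' processing notes name Seurat. Cells under 10 transcripts or 10 genes were left out (5 of 37575), and no column was left unused. No 2 sections were equal. The labels give sections their genotype, and describe paraffin embedding where the study's methods describe fresh frozen tissue. The series' design text names a human probe panel and the study's methods a mouse panel. Counts were summed per section and gate (at least 10 cells) and tested with edgeR 4.0.16 quasi-likelihood (TMM, filterByExpr) in R 4.3.3 over all genes, Benjamini-Hochberg threshold 0.05, with the section as a block between gates. Alternatives used DESeq2 1.42.0, limma 3.58.1 and those in the closing section. Tested on simulated counts, the comparison of embryos in the Cdh5 gate recovered 74% of 2-fold and 45% of 1.5-fold changes in 998 genes. Members and lists were chosen with earlier results of these data known. Named are all members, up to 4 called pathway genes per direction, 3 most like genes and markers. Seeds were fixed (Python 3.11.15). Promoters came from RefSeq, GRCm38.p6.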

Additional observations from a re-analysis of the deposited data

Results flagged for a closer look

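1 of the 45 groups of sections tested for a section that stands apart was singled out, and chance singles out about 1 in 20. In the Tagln + Acta2 gate, Flt1 in section 16 of the wildtype-labelled embryo stood at 16.3 transcripts per 10000, against 3.55 to 9.38 in the other 8 sections of that embryo and a median of 7.09. Groups of over 10 sections, those of the knockout-labelled embryo, were not tested this way. There the highest section for Flt1 in the Tagln + Acta2 gate stood at 19.5 against a median of 5.57. No member was called in the test of whether the Cdh5 gate differed from other cells by another amount in the 2 embryos.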

How the results depend on the processing

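Of the recomputed counts of called members, 17 moved by over 1.5 times, and the 128 recomputed levels by gate stayed within their SD. Scaled by library size alone, 6 members were called between the embryos over all cells and 7 in other cells, and these values turned to lower in the knockout-labelled sections: Tek -0.25, Tie1 -0.22 and Vegfa -0.20 over all cells, Kdr -0.19, Tie1 -0.26 and Vegfa -0.25 in other cells. That scaling moved the median gene to -0.30 over all cells, called 777 genes there against 125 and 767 in other cells, turned the calls of the Twist1 gate from 58.7% to 34.3% higher and those of the Tagln + Acta2 gate from 63.9% to 22.4% higher, and called 2 members in the Tagln + Acta2 gate against other cells and 1 (Kdr) in the test of the gap between embryos. Thresholds 1 count lower gave 0 members in the Tagln + Acta2 gate, 1 in the Twist1 gate and 1 in the test of the gap, and thresholds 2 counts higher gave 2 in the Tagln + Acta2 gate and 0 between the embryos in the Cdh5 gate, where 17 genes were called against 63. The Twist1 gate against other cells, with 3 members called, gave 1 by DESeq2, 1 in cells of at least 200 transcripts, 1 in the knockout-labelled sections and 0 in the wildtype-labelled sections alone, and the Tagln + Acta2 gate gave 0 in the latter. Between the embryos in the Cdh5 gate, the first set of sections gave 0 members (12 genes in all), the second 2, and gated cells with Dll4 or Hey1, an alternative chosen after seeing the data, 0 (22 genes). The ligand to receptor ratio moved to 0.344 in the knockout-labelled embryo with lower thresholds and to 0.264 in the wildtype-labelled embryo with higher ones. Above the floor of lymphocyte genes, an alternative chosen after seeing the data, it moved in the knockout-labelled and wildtype-labelled embryo to 0.0866 and 0.108 (Cdh5 gate), 0.429 and 0.431 (Tagln + Acta2 gate) and 0.643 and 0.575 (other cells). Leaving out each section in turn changed the number of members called between the embryos in none of the 5 cell classes. Shares of cells rose with the depth of thinning by construction. The cause of the other changes was not tested. No paired analysis was possible between the embryos because section numbers name different sections of different embryos and are shared by none. Counting error limits Angpt1, with 111 counts, and Angpt2, with 133 counts in the Cdh5 gate of the knockout-labelled embryo.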
